A study of Mus musculus with 12 samples.

Results

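The small leucine-rich proteoglycans described here are 9 genes, *Dcn*, *Bgn*, *Aspn*, *Fmod*, *Lum*, *Kera*, *Prelp*, *Omd* and *Ogn*, taken by gene symbol from the 32288 genes of the deposited count table. RNA-seq had been performed on mGFP+ cells sorted from the metaphysis of mouse distal femurs and proximal tibias, the part of the bone shaft next to the growth plate. The 12 libraries fell into 4 groups, and the comparisons asked how metaphyseal osteoblasts differ with age, after induction of *c-Myc*, and after induction of *c-Myc* with mutant p53. In all groups the cells were labelled by *Osx-CreERT2* (a tamoxifen-activated recombinase knocked into *Osx*, also called *Sp7*, a transcription factor gene of osteoblast precursors and osteoblasts) acting on the *mTmG* reporter, were negative for CD31, CD45 and TER119, and came from a mixed C57BL/6 and 129X1/Sv background.

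Juvenile *Osx*+ osteoblasts (4 libraries) came from 3-week-old and adult *Osx*+ osteoblasts (4 libraries) from 8-week-old *Osx-CreERT2*; *mTmG* mice given tamoxifen. For each library 2 male mice were pooled. Per the study, these cells were taken 2 days after the last of 3 daily tamoxifen treatments. *c-Myc*-induced osteoblasts (2 libraries) came from mice that carried, beside the driver and the reporter, *LSL-tTA*, a transactivator opened by the recombinase, and the *c-Myc* transgene that it drives, *Col1a1::TetO-c-Myc*. *c-Myc* + *R172H* osteoblasts (2 libraries) carried in addition *Trp53-LSL-R172H*, a mutant p53 allele opened by the same recombinase. Both induced groups are labelled as 3 weeks in the sample titles and are called 5-week-old in the sample protocol. They were collected 7 days after 2 consecutive tamoxifen treatments. Their diaphysis was trimmed at 5 mm from the growth plate rather than at 2 mm, and the study's methods state both sexes for these groups in the account of cell isolation and males only for RNA-seq elsewhere. Several factors therefore cannot be told apart from the induced alleles in any comparison of an induced group with the juvenile group. These are age at collection, trimming, time since tamoxifen, number of tamoxifen treatments and the tetracycline-class drug used to hold the transgene silent. Sex may be partly confounded as well, since *Xist* was high in 1 library of each induced group and low in the other.

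Small leucine-rich proteoglycans are secreted matrix proteins built of leucine-rich repeats, most of them carrying sulfated sugar chains. In bone, cartilage and tendon they bind collagen fibrils and govern their diameter and spacing, and several bind growth factors of the TGF-beta family. They are grouped into classes by sequence: class I holds decorin (*Dcn*) and biglycan (*Bgn*), which carry chondroitin or dermatan sulfate, and asporin (*Aspn*). Class II holds fibromodulin (*Fmod*), lumican (*Lum*), keratocan (*Kera*), *Prelp* and osteomodulin (*Omd*), several of which carry keratan sulfate or sulfated tyrosines, and class III includes osteoglycin (*Ogn*).

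Of the 9 genes, 8 lie in 3 gene clusters, with positions from GENCODE M21 on GRCm38 (mm10). *Dcn* (chr10:97479609-97518143), *Lum* (chr10:97565128-97572703) and *Kera* (chr10:97606879-97613692) lie on the plus strand within 202.8 kb that ends with *Epyc*, a class III relative. *Aspn* (chr13:49544443-49567565), *Omd* (chr13:49582462-49592822) and *Ogn* (chr13:49608046-49624501) follow *Ecm2* on the plus strand within 119.7 kb, and the opposite-strand gene *Cenpp* spans them, sharing 7 exon bases with *Aspn* and 0 with *Omd* and *Ogn*. *Prelp* (chr1:133910304-133921414, minus strand) and *Fmod* (chr1:134037254-134048277, plus strand) lie with *Optc* within 151.1 kb. *Prelp* shares 350 exon bases, 9.68% of its exon length, with the antisense gene *Gm15851*, which had 0 CPM in the juvenile and *c-Myc*-induced groups. *Bgn* (chrX:73483602-73495933, plus strand) stands alone on the X chromosome. The strand setting of the read counting is not given in the sources used here.

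RefSeq promoter sequences (GRCm38.p6) were matched for 7 of the 9 genes, with *Dcn* and *Lum* unmatched. The 250 bases before the start are shown for *Bgn*, the most abundant member, for *Fmod* and *Prelp*, the members with the largest fitted age differences, and for *Ogn*, the member promoter with a RUNX motif. All are printed 5′ to 3′ on the strand of the gene, and capitals mark motif matches.
Bgn, chrX:73483351-73483600, plus strand: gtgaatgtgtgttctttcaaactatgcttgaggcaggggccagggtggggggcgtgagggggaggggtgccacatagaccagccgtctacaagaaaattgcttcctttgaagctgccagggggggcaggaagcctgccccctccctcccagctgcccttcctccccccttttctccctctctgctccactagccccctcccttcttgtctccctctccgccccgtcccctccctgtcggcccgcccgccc
Fmod, chr1:134037004-134037253, plus strand: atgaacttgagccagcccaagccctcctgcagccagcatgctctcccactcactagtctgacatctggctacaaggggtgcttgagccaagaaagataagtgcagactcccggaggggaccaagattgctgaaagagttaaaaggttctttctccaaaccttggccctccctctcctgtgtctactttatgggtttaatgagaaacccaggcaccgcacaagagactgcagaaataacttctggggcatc
Prelp, chr1:133921402-133921651, minus strand: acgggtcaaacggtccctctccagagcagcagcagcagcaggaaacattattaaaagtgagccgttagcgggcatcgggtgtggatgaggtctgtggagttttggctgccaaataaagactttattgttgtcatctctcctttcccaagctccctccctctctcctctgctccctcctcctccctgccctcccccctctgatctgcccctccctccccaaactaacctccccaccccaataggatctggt
Ogn, chr13:49607765-49608014, plus strand: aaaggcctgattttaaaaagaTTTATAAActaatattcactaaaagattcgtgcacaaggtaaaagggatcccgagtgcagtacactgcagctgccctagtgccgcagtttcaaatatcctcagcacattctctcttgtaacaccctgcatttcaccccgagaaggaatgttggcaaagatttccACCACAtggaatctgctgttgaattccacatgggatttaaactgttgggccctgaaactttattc

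The capitals in *Ogn* are the RUNX motif TGTGGT, present as its reverse complement ACCACA from base -65 to base -60 counted from the start, and overlapping matches to the TATA motif TATAAA on both strands from base -229 to base -222. *Bgn*, *Fmod* and *Prelp* held no match to any motif searched in these windows. The motifs were searched on both strands from 250 bases before to 50 after the start, without overlap between different motifs in the members. RUNX was found in 1 of 7 members and in 16.8% of 32851 promoters, and TATA in 2 of 7 (*Aspn* and *Ogn*) and in 13.6%. The E-box CACGTG (7.15% of promoters), the AP-1 motif TGANTCA (7.81%) and the GLI motif TGGGTGGTC (0.253%) were found in 0 of 7 members. G and C made up 64.4% of the *Bgn* sequence, 55.6% of *Prelp*, 51.2% of *Fmod* and 42.0% of *Ogn*, beside a median of 52.4% over all promoters.

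Library totals ran from 9066154 to 15684412 counts. Values are given as CPM, read counts scaled to a common library size with TMM factors over all 12 libraries. Where genes are compared with each other, CPM per kb of exon is also given. Exon length covers all annotated exons of a gene merged across its transcripts, so an expressed transcript may be shorter. The order of genes per kb depends on this length. *Sp7* averaged 237 CPM in juvenile, 176 in adult, 137 in *c-Myc*-induced and 121 in *c-Myc* + *R172H* osteoblasts, and *Myc* 45.9, 47.8, 641 and 693 CPM. *Trp53* averaged 23.1, 21.7, 60.6 and 62.7 CPM, a gene count that does not tell the mutant allele from the wild type. The type I collagen genes fell from 485198 (*Col1a1*) and 223768 CPM (*Col1a2*) in juvenile to 36174 and 19517 CPM in *c-Myc* + *R172H* osteoblasts. *Xist* stood at 233 and 211 CPM in 1 library of each induced group and at 0.0456 and 0.183 CPM in the other, and at no more than 1.24 CPM in the controls. Cartilage genes were present in the sorted cells: the summed CPM of 16 chondrocyte markers was 18807 to 36965 in juvenile, 44888 to 142587 in adult, 1888 to 2128 in *c-Myc*-induced and 880 to 1048 in *c-Myc* + *R172H* libraries. Marker sums of marrow stroma were 347 to 447 CPM in juvenile, 460 to 703 in adult, 160 to 246 in *c-Myc*-induced and 141 to 161 in *c-Myc* + *R172H* libraries. In the same order, those of fibroblasts and periosteum were 1017 to 1242, 704 to 984, 477 and 427 to 433 CPM. Those of tendon were 465 to 664, 403 to 683, 441 to 443 and 502 to 508 CPM. Most of the tendon sum was *Egr1*, which averaged 513, 353, 426 and 492 CPM. *Thbs4* averaged 26.3, 137, 1.91 and 1.92 CPM, *Scx* 16.3, 8.62, 8.5 and 7.01 CPM, and *Mkx* 10.2, 8.75, 4.25 and 3.62 CPM. Marker sums of endothelial, blood and muscle cells did not exceed 9.25 CPM.

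In juvenile osteoblasts *Bgn* was the most abundant member per length, at 324 CPM per kb ± 26.5 (SD, n = 4), rank 30 of 12657 genes. *Lum* (118 ± 27.3 CPM per kb), *Fmod* (96.7 ± 10.3) and *Dcn* (80.7 ± 16.5) followed, and the SD ranges of neighbours in that order overlapped. That order rests on merged exon lengths of 2.45 kb for *Lum*, 3.31 kb for *Fmod* and 5.84 kb for *Dcn*. In CPM it was reversed, with means of 471 for *Dcn*, 320 for *Fmod* and 288 for *Lum*. *Prelp* (21.2 ± 10.1 CPM per kb) and *Omd* (16.8 ± 1.89) formed a lower step whose ranges also overlapped, followed by *Ogn* (4.73 ± 1.77) and *Aspn* (1.24 ± 0.767). *Kera*, best known from the cornea, had 0 counts in all 12 libraries, where 3 counts, the limit that a count of 0 allows, correspond to 0.137 to 0.417 CPM, and it was not tested. In adult osteoblasts *Fmod* stood at 319 CPM per kb ± 162 (SD, n = 4), beside 326 ± 48.9 for *Bgn*, and *Prelp* stood at 120 ± 69.9 CPM per kb. In CPM the adult means were 1055 for *Fmod* and 1988 for *Bgn*.

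**Figure D1:**
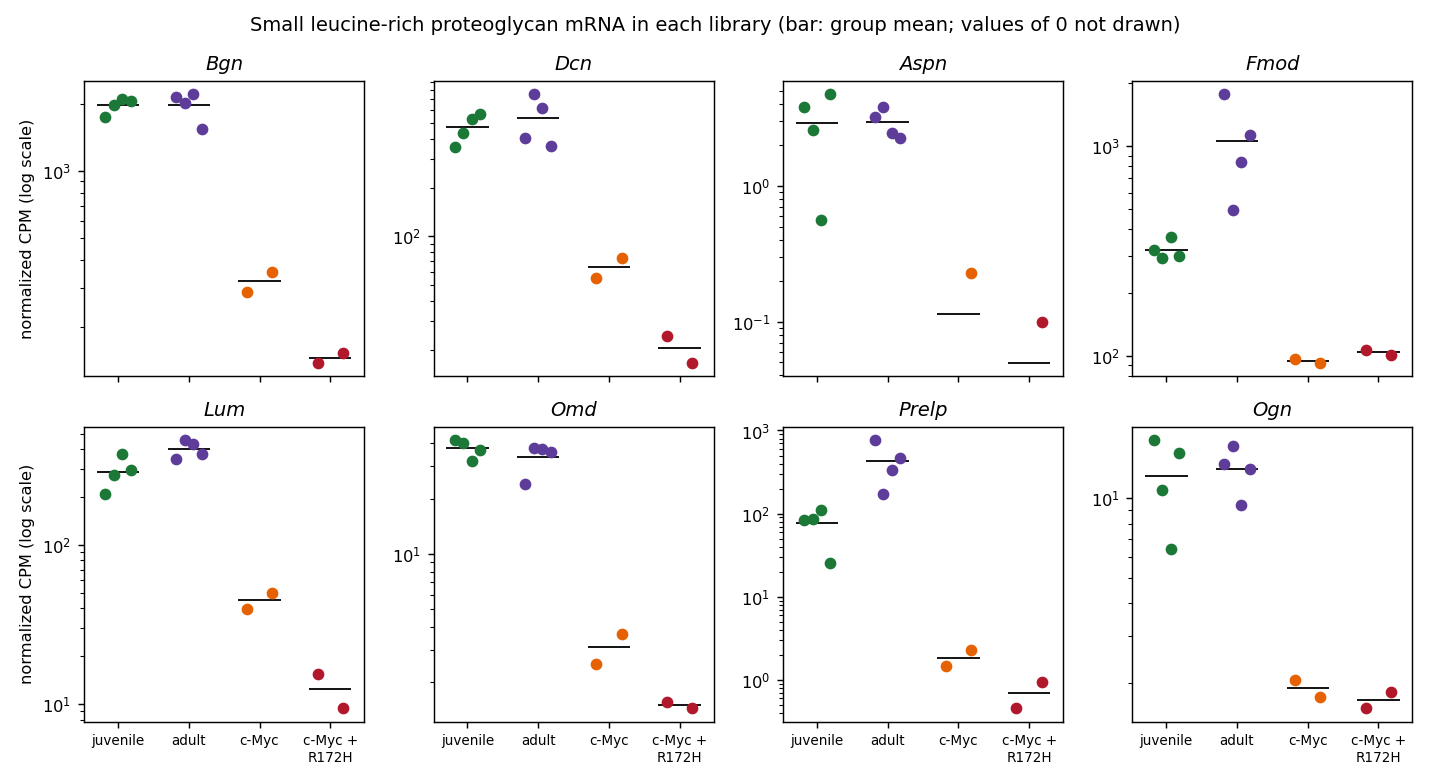
Normalized CPM (log axis, scaled separately in each panel) of the 8 detected small leucine-rich proteoglycans in each library of the 4 groups, with a bar at the group mean. All 8 stand lower in the 4 induced libraries than in the 4 juvenile libraries, while *Fmod* and *Prelp* alone stand higher in every adult than in every juvenile library.

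Juvenile and adult osteoblasts were compared to ask which members differ with age. *Fmod* was the member whose difference passed the test: its mRNA was lower at 3 weeks. *Fmod* was measured at 318, 293, 368 and 300 CPM in the juvenile libraries and at 1760, 497, 839 and 1124 CPM in the adult libraries. The juvenile values lay close together, the adult values spread 3.54-fold, and the groups did not overlap. The log2 fold change of juvenile over adult was -1.73 (SE 0.34, edgeR quasi-likelihood test with Benjamini-Hochberg adjustment over 11345 genes, adjusted p = 0.0271). Thus 1 of 8 tested members was called lower in juvenile osteoblasts, where 3.23% of all genes tested were called lower and 5.12% in either direction, and DESeq2 called 3 (*Fmod*, *Lum* and *Prelp*). The *Fmod* call was lost when juvenile library 1 (adjusted p = 0.0773), juvenile library 2 (0.0723), juvenile library 4 (0.0569) or adult library 4 (0.0828) was left out, and without a filter on low counts (0.0537), with the fold change between -2.0 and -1.07 under every alternative run.

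*Prelp*, a heparin-binding class II protein of cartilage and basement membranes, was measured at 84.1, 85.5, 112 and 25.2 CPM in juvenile and at 769, 173, 335 and 463 CPM in adult libraries. Again the groups did not overlap, juvenile library 4 being the lowest and adult library 1 the highest. The log2 fold change was -2.52 (SE 0.61), with an adjusted p of 0.0702 by edgeR that missed the threshold. *Fmod* and *Prelp* were the 2 members, of 8, whose juvenile libraries all stood below the adult libraries, which held for 6.75% of all genes tested.

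*Lum* was measured at 208, 276, 371 and 296 CPM in juvenile and 348, 457, 431 and 372 CPM in adult libraries. Juvenile library 3 exceeded adult library 1, so that the groups overlapped, and the log2 fold change was -0.49 (SE 0.16, edgeR adjusted p = 0.0772). *Lum* was called without a filter on low counts (edgeR adjusted p = 0.00648), by library totals (0.0029), without juvenile library 3 (0.0344) and by DESeq2 (0.0361). *Dcn* was measured at 356, 431, 530 and 569 CPM in juvenile and 403, 750, 619 and 361 CPM in adult libraries, with a log2 fold change of -0.18 (95% interval -0.63 to 0.26). The groups overlapped over most of their range. *Bgn* was measured at 1751, 1979, 2109 and 2076 CPM in juvenile and 2158, 2023, 2213 and 1556 CPM in adult libraries, and its interval for the log2 fold change, -0.29 to 0.26, was the narrowest among the members. The remaining members were also centred near 0: the intervals ran from -0.17 to 0.47 for *Omd*, from -0.63 to 0.45 for *Ogn* and from -1.09 to 1.07 for *Aspn*, whose counts were low (109 in all juvenile and 106 in all adult libraries). The median log2 fold change of the 8 members was -0.14, beside 0.001 over all genes tested.

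The chondrocyte markers moved with age in the same direction as *Fmod* and *Prelp*. Of the 16 markers, 15 had a lower fitted level at 3 weeks, 2 were called lower by edgeR, and 11 had non-overlapping groups. The summed marker level was 28742, 35389, 36965 and 18807 CPM in juvenile libraries 1 to 4 and 142587, 44888, 67470 and 88199 CPM in adult libraries 1 to 4. Among the adult libraries *Fmod* and *Prelp* followed the same order as this sum, from library 2 through 3 and 4 to 1. *Lum* and *Omd* ran in exactly the reverse order, and *Bgn*, *Dcn*, *Ogn* and *Aspn* in neither. *Prelp* was also lowest in the juvenile library with the lowest marker sum. *Fmod* did not follow the sum among the juvenile libraries, being lowest in library 2 (293 CPM). The part of the cartilage signal in the *Fmod* and *Prelp* values was not tested. An alternative chosen after seeing the data left out adult libraries 1 and 4, those with the highest marker sums. The log2 fold change was then -1.07 for *Fmod* (edgeR adjusted p = 0.00198) and -1.73 for *Prelp* (0.36). The adult libraries kept had marker sums of 44888 and 67470 CPM, still above every juvenile library. This fit therefore does not test the part of the cartilage signal.

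**Figure D2:**
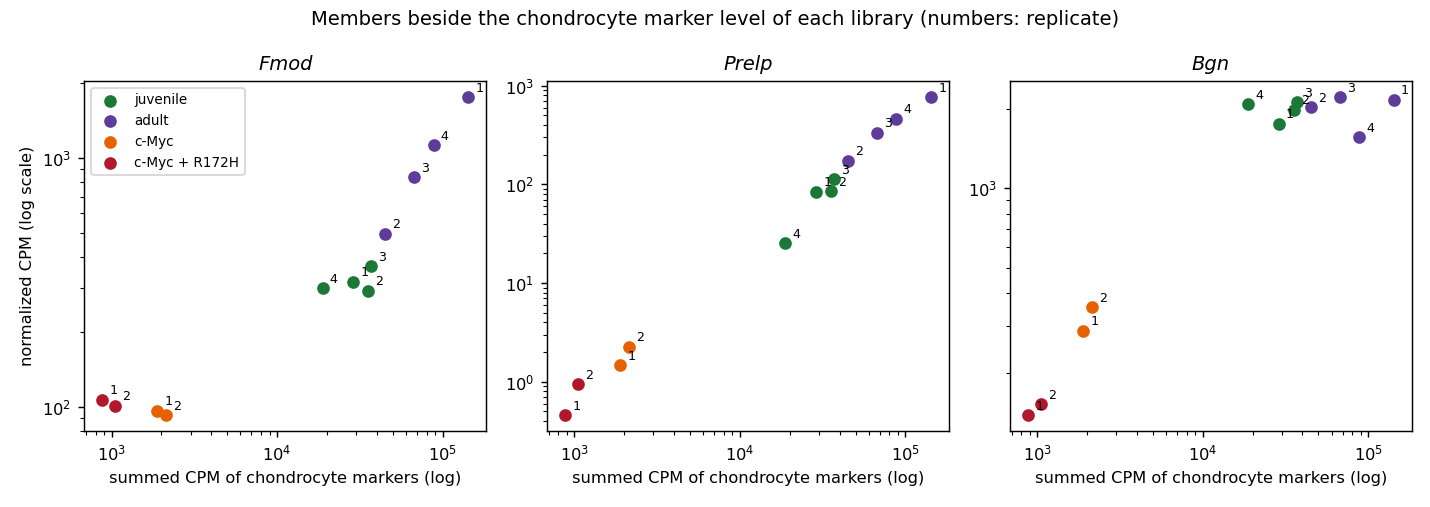
Normalized CPM of *Fmod*, *Prelp* and *Bgn* (vertical log axis) against the summed CPM of 16 chondrocyte markers (horizontal log axis) in each library, numbered by replicate and coloured by group. *Fmod* and *Prelp* climb with the marker sum across the adult libraries, and *Bgn* stays between 1556 and 2213 CPM in all 8 control libraries.

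Within libraries, *Fmod* mRNA stood at 0.144 to 0.182 of the *Bgn* count in juvenile and at 0.246 to 0.815 in adult osteoblasts. The ratio of *Bgn* to *Dcn*, the chondroitin or dermatan sulfate pair of class I, ran from 3.65 to 4.92 in juvenile and from 2.7 to 5.35 in adult libraries. Its mean log2 differed by 0.14 between the ages, less than the spread within the adult group (SD 0.42), and an exact two-sided permutation test over 70 arrangements gave p = 0.6, where the smallest p the design allows is 0.0286.

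*c-Myc*-induced osteoblasts were compared with juvenile osteoblasts to ask what the transgene changes. All 8 tested members were lower in *c-Myc*-induced osteoblasts, by at least an absolute log2 fold change of 1 and with an adjusted p under 0.05, and none of their groups overlapped. Among all 12588 genes tested 16% were called lower by this rule and 34.4% in either direction, and 28.8% had every *c-Myc*-induced library below every juvenile one. The median log2 fold change of the members was -2.80, beside 0.037 over all genes tested. In bulk libraries fewer cells of a type and less RNA per cell cannot be told apart. The chondrocyte markers (16 of 16 called lower, median log2 fold change -5.68) and osteoblast markers (8 of 10, -1.99) fell in the same comparison. So did those of fibroblasts and periosteum (4 of 5, -1.85), osteocytes (3 of 3, -1.42) and tendon (2 of 5, -1.21). Of 8 marrow stroma markers 3 were called lower and 1 higher (-1.12), and of 3 blood markers 2 were called higher. The part of these markers in the members' values was not tested.

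Of the class I members, *Bgn* was measured at 288 and 353 CPM in the *c-Myc*-induced libraries, against 1751 or more in every juvenile library. Its log2 fold change was -2.65 (SE 0.12, edgeR adjusted p = 1.31e-08), a 6.26-fold lower fitted level. *Dcn* was measured at 55.4 and 73.3 CPM, with a log2 fold change of -2.89 (SE 0.22, edgeR adjusted p = 3.39e-07). The drop of these most abundant class I mRNAs was of like size, their within-library ratio being 4.82 and 5.19 in the *c-Myc*-induced libraries. *Aspn*, whose product lacks the sugar chains of decorin, had 0 and 4 counts, against 42, 25, 4 and 38 in the juvenile libraries. The ratio of its summed, depth-scaled counts, juvenile over *c-Myc*-induced, was 30.0 (95% interval 11.4 to 112, counting error only). Its fitted log2 fold change of -4.71 became -3.66 without *c-Myc*-induced library 1, where the call was lost (edgeR adjusted p = 0.0792), and -8.41 without *c-Myc*-induced library 2, which leaves a library with 0 counts.

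Among class II genes the fitted drops ranged from 3.43-fold to 42.2-fold. *Fmod* had the smallest fitted change of the 8 members, to 96.6 and 92.6 CPM from 293 to 368 CPM in juvenile libraries (log2 fold change -1.78, SE 0.11, edgeR adjusted p = 7.81e-08). *Prelp* stood at 1.46 and 2.27 CPM (-5.40, SE 0.71, edgeR adjusted p = 0.000373), a 42.2-fold lower fitted level. The ratio of *Prelp* to *Fmod* went from 0.0845 to 0.304 in juvenile libraries to 0.0156 and 0.0251. *Omd*, a mineral-binding keratan sulfate proteoglycan of bone, was measured at 2.51 and 3.68 CPM against 32.1 to 41.8 CPM in juvenile libraries (-3.64, SE 0.23, edgeR adjusted p = 9.72e-08). *Lum* was measured at 39.7 and 50.0 CPM (-2.70, SE 0.23, edgeR adjusted p = 1.17e-06). The class III gene *Ogn* stood at 2.05 and 1.76 CPM against 6.40 to 16.6 CPM (-2.69, SE 0.41, edgeR adjusted p = 0.000133). Scaled by library totals alone, the median gene shifted by 0.87 and *Fmod* had a log2 fold change of -0.94, short of the fold limit. The other 7 members stayed called under that scaling.

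*c-Myc* + *R172H* osteoblasts, compared with the same juvenile libraries, also had all 8 tested members lower and non-overlapping, where 17.9% of all genes were called lower and 30.2% stood lower without overlap. The median log2 fold change of the members was -4.52, beside 0.076 over all genes, and the adjusted p by edgeR was at most 0.0035. The chondrocyte markers (16 of 16 called lower, median -6.99) and osteoblast markers (8 of 10, -2.71) fell as well. So did those of fibroblasts and periosteum (4 of 5, -1.88), osteocytes (3 of 3, -2.61), marrow stroma (5 of 8, -1.79) and tendon (3 of 5, -1.49). Of 3 blood markers 2 were called higher. The part of these markers was not tested. Because both comparisons share the juvenile libraries, their values are given side by side and not as independent support. *Dcn* had a log2 fold change of -4.52 (SE 0.24) here and -2.89 in *c-Myc*-induced osteoblasts, *Lum* -4.52 (SE 0.26) and -2.70, *Bgn* -3.76 (SE 0.13) and -2.65, and *Omd* -4.64 (SE 0.25) and -3.64. *Prelp* stood at -6.77 (SE 0.80) and -5.40. By contrast *Fmod* had -1.62 (SE 0.11) and -1.78, and *Ogn* -2.82 (SE 0.41) and -2.69. *Aspn* had 0 and 2 counts, and its juvenile over *c-Myc* + *R172H* ratio was 63.8 (95% interval 17.2 to 534, counting error only), its fitted value running from -8.37 without *c-Myc* + *R172H* library 2 to -4.78 without library 1. Scaled by library totals, *Fmod* was again short of the fold limit at -0.57, where the median gene shifted by 1.12.

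**Figure D3:**
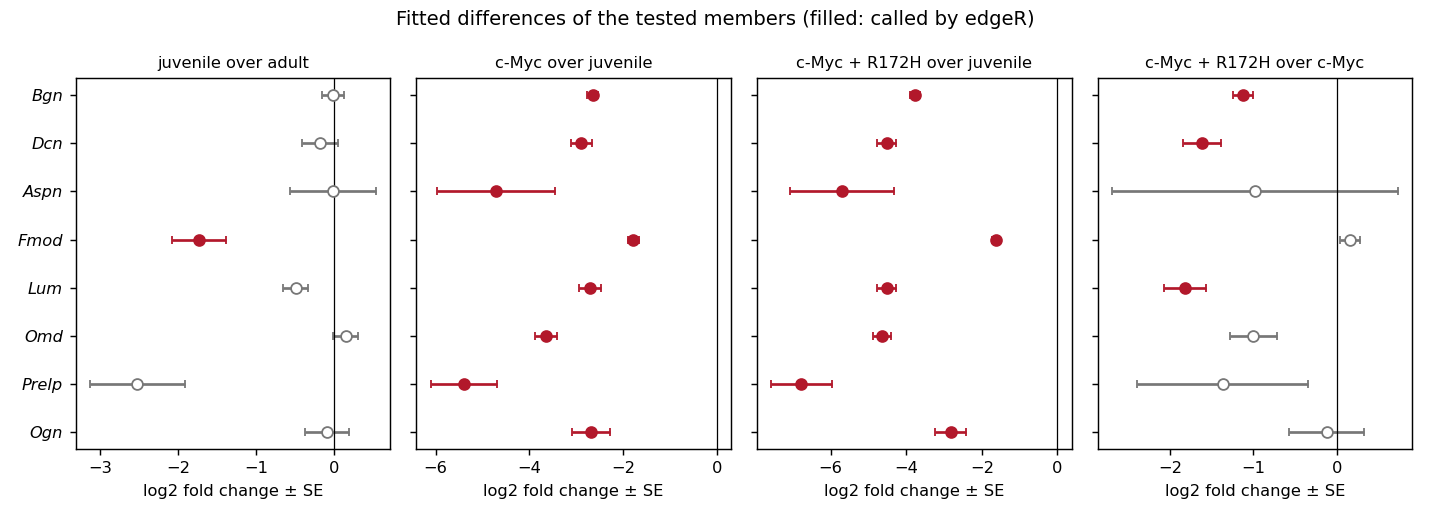
Fitted log2 fold change ± SE (horizontal axis) of the 8 tested members in the 4 comparisons, filled where called by edgeR. Every point in the comparisons of induced with juvenile osteoblasts is called, from -1.62 for *Fmod* to -6.77 for *Prelp* with mutant p53, and 3 points are called between the induced groups.

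The induced groups were compared with each other to ask what the mutant p53 allele adds to *c-Myc*. *Lum*, *Dcn* and *Bgn* were lower in *c-Myc* + *R172H* than in *c-Myc*-induced osteoblasts, which makes 3 of 8 tested members, where 0.461% of all 12588 genes (58) were called lower and 0.00794% (1) higher. *Lum* was measured at 15.4 and 9.42 CPM against 39.7 and 50.0 CPM (log2 fold change -1.82, SE 0.25, edgeR adjusted p = 0.00974). *Dcn* was measured at 24.3 and 16.6 CPM against 55.4 and 73.3 CPM (-1.62, SE 0.23, edgeR adjusted p = 0.00974). *Bgn* was measured at 138 and 152 CPM against 288 and 353 CPM (-1.12, SE 0.12, edgeR adjusted p = 0.00179). In each of these genes both libraries of one group stood below both of the other. DESeq2 called 4 members, *Omd* (adjusted p = 0.0435) beside these 3. Most tested markers of several cell types stood lower here too. The chondrocyte markers had a median log2 fold change of -1.31 (14 of 16 below 0, 11 without overlap, the summed level 880 to 1048 against 1888 to 2128 CPM). The osteoblast markers had one of -0.66 (8 of 10 without overlap), with *Col1a1* (-1.05, edgeR adjusted p = 0.0307) called. The 8 tested marrow stroma markers had one of -0.62 (6 below 0, 2 above), with *Lepr* alone called (-1.08, edgeR adjusted p = 0.00983). The 5 tested fibroblast and periosteum markers had one of -0.2 (5 below 0, 4 without overlap). The 3 tested osteocyte markers had one of -1.18 (3 below 0, 3 without overlap). The 5 tested tendon markers had one of -0.2 (3 below 0, 2 above). The part of these markers in the members' values was not tested. *Bgn* stayed called under every alternative run. *Dcn* and *Lum* lost the call without *c-Myc*-induced library 2 (edgeR adjusted p = 0.118 and 0.133) and without *c-Myc* + *R172H* library 2 (0.0972 and 0.092), *Dcn* also in a fit of all 12 libraries (0.133), and both with the title number as a block (0.221 and 0.282).

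*Fmod* was not called and was measured at 107 and 101 CPM in *c-Myc* + *R172H* and 96.6 and 92.6 CPM in *c-Myc*-induced osteoblasts, with a log2 fold change of 0.16 (95% interval -0.07 to 0.39). *Omd* was measured at 1.56 and 1.44 CPM against 2.51 and 3.68 CPM (-1.0, 95% interval -1.54 to -0.46, edgeR adjusted p = 0.24). *Prelp*, at 0.457 and 0.942 CPM against 1.46 and 2.27 CPM, had an interval of -3.39 to 0.66 and was called without a filter on low counts (edgeR adjusted p = 0.00325) and with the title number as a block (0.041), and *Ogn*, at 1.60 and 1.84 CPM against 2.05 and 1.76 CPM, one of -1.01 to 0.76. *Aspn* rested on 2 and 4 summed counts. In all, 5 of 8 members stood lower without overlap, where 27.5% of all genes did, and 1 (*Fmod*) stood higher, where 17.5% did. The median log2 fold change of the members was -1.06, beside -0.003 over all genes. Each group held 2 libraries, one of each with *Xist* above 200 CPM as given above, and *Bgn* is X-linked: it stood at 353 CPM and 152 CPM in replicate 2 and at 288 CPM and 138 CPM in replicate 1.

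The makeup of the summed level was also examined. Summed over the members, the level was 2779 to 3529 CPM in juvenile, 3928 to 5480 in adult, 485 to 577 in *c-Myc*-induced and 283 to 288 CPM in *c-Myc* + *R172H* libraries. Per kb of exon, *Bgn* made up 46.3% to 50.2% of this pool in juvenile, 26.6% to 38.2% in adult, 45.2% to 47.5% in *c-Myc*-induced and 33.8% to 39.2% in *c-Myc* + *R172H* libraries. *Fmod* made up 13.3% to 16.6%, 17.3% to 40.1%, 23% to 28% and 47.8% to 48.4%. By this measure it was the largest share with mutant p53 and also in adult libraries 1 and 4 (40.1% and 35.4%). This order depends on the exon lengths used, 6.1 kb for *Bgn* and 3.31 kb for *Fmod*. In CPM, *Bgn* stood above *Fmod* in the same libraries, at 138 and 152 against 107 and 101 CPM with mutant p53. In adult libraries 1 and 4 it stood at 2158 and 1556 against 1760 and 1124 CPM. *Dcn* took 10.5% to 14.3% in juvenile, 5.2% to 14.8% in adult, 9.09% to 10.3% in *c-Myc*-induced and 4.45% to 6.24% in *c-Myc* + *R172H* libraries. *Fmod* counts per *Dcn* count ran from 0.527 to 0.895 in juvenile, 0.663 to 4.37 in adult, 1.26 to 1.74 in *c-Myc*-induced and 4.38 to 6.06 in *c-Myc* + *R172H* libraries, a ratio that needs no scaling between libraries.

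**Figure D4:**
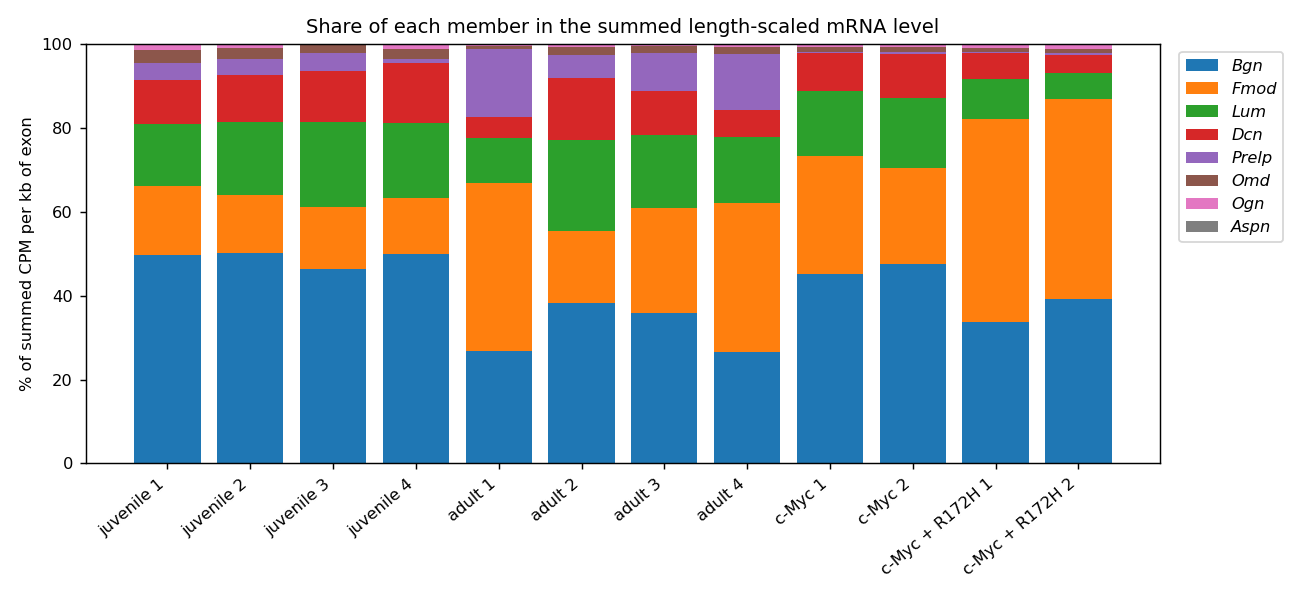
Share of each member in the summed CPM per kb of exon (vertical axis, percent) in the 12 libraries. *Bgn* holds the largest share in the juvenile and *c-Myc*-induced libraries and in adult libraries 2 and 3. *Fmod* holds the largest share in adult libraries 1 and 4 and in the *c-Myc* + *R172H* libraries (47.8% and 48.4%). The shares depend on the exon lengths used, and in CPM *Bgn* exceeds *Fmod* in every library.

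The fold changes were also laid out along the gene clusters. On chromosome 10 *Dcn* and *Lum* had log2 fold changes of -0.18 and -0.49 with age, -2.89 and -2.70 with *c-Myc* and -1.62 and -1.82 on addition of *R172H*. *Kera*, between *Lum* and *Epyc*, had 0 counts and was not tested. On chromosome 1 *Prelp* and *Fmod* had -2.52 and -1.73 with age, where *Fmod* alone was called, and -5.40 and -1.78 with *c-Myc*. On chromosome 13 *Aspn*, *Omd* and *Ogn* stood between -0.09 and 0.15 with age and between -4.71 and -2.69 with *c-Myc*.

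**Figure D5:**
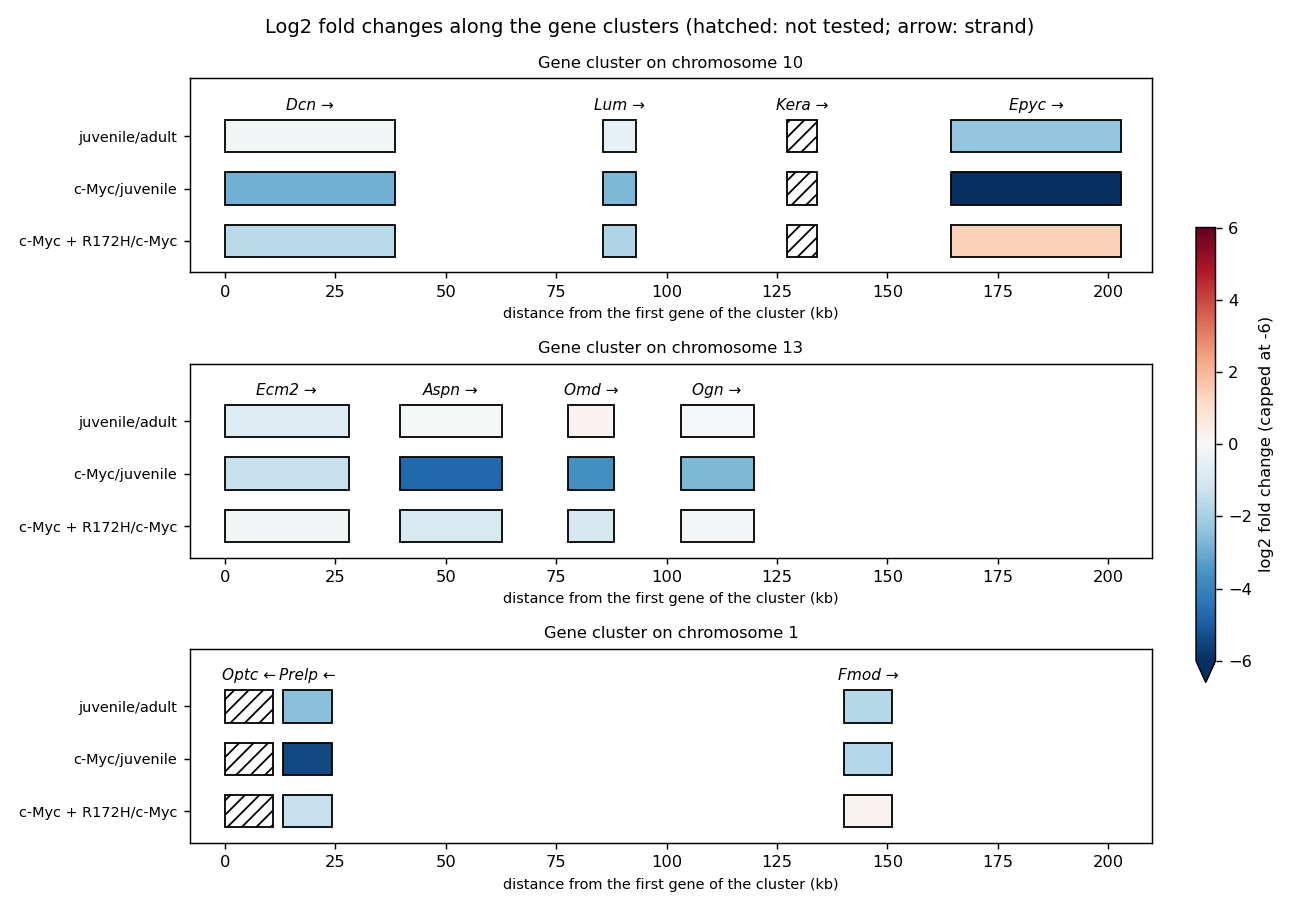
Log2 fold changes (colour) of the genes in the 3 clusters, drawn by distance in kb from the first gene, with 1 row for each of 3 comparisons and hatching where a gene was not tested. *Dcn* and *Lum* have similar colours in the *c-Myc* row (-2.89 and -2.70), and *Prelp* is darker than *Fmod* there (-5.40 and -1.78). *Epyc* in the induced groups rests on 3 and 9 counts.

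For each tested member the genes with the most similar profile were found by the root mean square difference of centred log2 CPM over the 12 libraries, among 11276 genes. *Dcn* and *Lum* were each other's nearest gene (0.26), with *Bglap2*, an osteocalcin gene, next for both (0.26 and 0.30). *Bgn* was nearest to *Flvcr2* (0.18) and *Col11a2* (0.20), a fibrillar collagen gene of cartilage. *Fmod* was nearest to *Slc26a2* (0.18), which encodes a sulfate transporter, and *Sdc4* (0.24), a cell-surface heparan sulfate proteoglycan. *Omd* was nearest to *Mfap2* (0.23) and *Col3a1* (0.32), *Ogn* to *Pappa* (0.22) and *Clip3* (0.27). *Prelp* was nearest to *Meltf* (0.31) and *Col2a1* (0.46), the main collagen gene of cartilage. *Aspn*, with few counts, had no close neighbour (*Zim1* 0.62, *Cpa6* 0.76). These distances are descriptions over libraries that share group, depth and scaling.

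Other members of the wider family were examined alongside. *Epyc*, a growth plate proteoglycan, averaged 17.7 CPM in juvenile and 90.2 CPM in adult libraries (log2 fold change -2.36, SE 0.57, edgeR adjusted p = 0.0701), and had 3 counts in all in *c-Myc*-induced libraries, for a juvenile over *c-Myc*-induced ratio of 237 (95% interval 80.9 to 1150, counting error only). *Chad*, a cartilage protein that binds collagen and integrin, averaged 155 and 382 CPM in juvenile and adult and 3.44 and 3.36 CPM in the induced groups (-5.49 and -5.52 against juvenile, edgeR adjusted p = 0.0024 and 0.00217). *Tsku*, a secreted modulator of growth factor signalling, averaged 72.4, 49.7, 18.5 and 10.6 CPM in juvenile, adult, *c-Myc*-induced and *c-Myc* + *R172H* osteoblasts. *Podnl1* averaged 31.9, 35.1, 16.8 and 14.9 CPM, and *Ecm2* stayed at or below 2.01 CPM on average. *Optc*, *Nyx* and *Podn* were too low to be tested, *Podn* reaching 0.911 to 1.69 CPM in adult and at most 0.365 CPM in juvenile libraries. Of the 5 tested, edgeR called 0 with age (2 at an unadjusted p under 0.05, and DESeq2 called 1 lower at 3 weeks), 3 lower with *c-Myc* (16% of all genes) and 4 lower with *c-Myc* + *R172H* (17.9%).

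Enzymes and transporters that build and sulfate the sugar chains were followed as a list. At 3 weeks 1 of 38 tested was called higher, where 1.89% of all genes were, and 8 lower, where 3.23% were (median log2 fold change -0.24). *Chst13*, a chondroitin 4-sulfotransferase, was higher (36.4 against 20.6 CPM, log2 fold change 0.81, edgeR adjusted p = 0.016), and *Csgalnact1*, which starts chondroitin chains, was lower (9.06 against 35.7 CPM, -2.0, 0.00815), as was the sulfotransferase *Chst5* (1.46 against 5.48 CPM). With *c-Myc*, 1 of 39 was called higher, where 18.4% of all genes were, and 17 lower, where 16% were (median -0.92, beside -2.80 for the members), and with *c-Myc* + *R172H* 1 was called higher, where 19.6% of all genes were, and 20 lower, where 17.9% were (median -1.16). *Chst11*, a chondroitin 4-sulfotransferase, averaged 212 CPM in juvenile, 33.4 in *c-Myc*-induced and 15.4 CPM in *c-Myc* + *R172H* osteoblasts, and was the list's 1 call between the induced groups (-1.09, edgeR adjusted p = 0.0417). *Pxylp1*, a phosphatase of the linker xylose, fell from 55.8 to 11.5 CPM with *c-Myc*, and *B3gnt7*, a keratan sulfate enzyme, from 4.55 to 0.334 CPM with *c-Myc* + *R172H*. The keratan sulfate sulfotransferase gene *Chst1* rose, from 1.14 CPM in juvenile to 4.13 and 5.54 CPM in the induced groups (edgeR adjusted p = 0.0287 and 0.00801).

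Binding partners of the family, mostly fibrillar collagens, collagen VI, TGF-beta ligands and collagen-processing enzymes, formed a further list. At 3 weeks 3 of 22 tested were called higher and 6 lower, where 1.89% and 3.23% of all genes were. The procollagen protease gene *Bmp1* (1349 against 901 CPM, log2 fold change 0.58, edgeR adjusted p = 0.0264) and *Tgfb1* (195 against 132 CPM, 0.55, 0.0166) were higher, and *Col2a1* (15589 against 58723 CPM, -1.92, 0.035) and *Col6a2* (773 against 1912 CPM, -1.31, 0.000164) were lower. With *c-Myc* 20 of 21 were called lower (median -2.11), where 16% of all genes were, and with *c-Myc* + *R172H* 19 of 21 (median -2.67), where 17.9% were. *Col6a2* stood at 82.2 CPM and *Col2a1* at 360 CPM in *c-Myc*-induced osteoblasts, and *Col2a1* at 127 CPM in *c-Myc* + *R172H* osteoblasts. Between the induced groups 8 of 21 were called lower with *R172H*, where 0.461% of all genes were, among them *Col3a1* (35.4 against 119 CPM, -1.71, edgeR adjusted p = 0.0103) and *Col11a1* (240 against 711 CPM, -1.54, 0.000897).

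Proteoglycans outside the family formed the last list. With age 2 of 25 tested were called higher at 3 weeks (*Gpc3*, 6.73 against 1.81 CPM, and *Bcan*, 54.7 against 25.8 CPM) and 2 lower (*Sdc4*, 115 against 324 CPM, and *Sdc3*, 703 against 1010 CPM), where 1.89% and 3.23% of all genes were. With *c-Myc* 2 of 27 rose and 14 fell, where 18.4% and 16% of all genes did, and with *c-Myc* + *R172H* 2 rose and 16 fell, where 19.6% and 17.9% did. The genes that rose were *Nrp1*, a co-receptor that can carry a sugar chain (31.1 CPM in juvenile, 84.2 and 96.0 CPM in the induced groups), and *Cspg5* (0.2, 1.26 and 2.87 CPM). *Acan*, which encodes the large cartilage proteoglycan aggrecan, fell from 1137 to 21.8 and 8.70 CPM. *Spock1* ranged from 0 to 4.54 CPM in juvenile libraries and had 0 counts in both induced groups, which is at least 30.3-fold lower with *c-Myc* than the juvenile mean of 2.3 CPM, at a limit of 3 counts over the group.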

How the data were processed

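The authors deposited a table of raw read counts per gene for 12 libraries. Per their methods, reads were demultiplexed with bcl2fastq 2.20, trimmed with cutadapt 4.6, aligned to mm10 with STAR 2.7.11a and counted as uniquely mapped reads with HTSeq 2.0.5. The counts were used as deposited, with every gene kept in the library sizes.

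Groups came from the sample titles. Counts were tested in R 4.3.3 with the quasi-likelihood test of edgeR 4.0.16 (TMM factors, filterByExpr, limma 3.58.1), with Benjamini-Hochberg adjustment over all genes tested. Juvenile and adult libraries were fitted alone, and juvenile and induced libraries in a second fit that shares one estimate of the spread. Calls needed an adjusted p under 0.05 and, for induced against juvenile, a log2 fold change of 1 or more in size. DESeq2 1.42.0, the tool of the study, other scalings, filters, fits and left-out libraries were alternatives. p-values measure only the spread between these libraries. Replicates differed beyond sampling noise in every pair. The code was tested on simulated data.

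The text names all members, 8 further family genes, the sample checks, the 2 nearest genes of each member and, for each list and comparison, up to 2 called genes with the largest rise and fall among those with a mean normalized count of at least 10. The members and lists were chosen with earlier results of these data known. The list of binding partners held 25 names, of which 24 were in the table. Positions and exon lengths came from GENCODE M21, and promoters from RefSeq. Depth ran from 9066154 to 15684412 counts, and intervals of ratios cover counting error only.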

Additional observations from a re-analysis of the deposited data

Results flagged for a closer look

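*Omd* in adult osteoblasts had 1 library apart from the others: adult library 1 stood at 23.9 CPM, while the other adult libraries stood between 36.0 and 37.8 CPM, a gap of 0.872 of the group's whole range, past the 95% limit of Dixon's test. It is the adult library with the highest chondrocyte marker sum (142587 CPM). The part of that signal was not tested. In all, 29 groups of 4 values were examined in this way, and chance alone picks out about 1 in 20.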

How the results depend on the processing

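With 2 to 4 libraries a group, low members are the least certain: *Aspn* rests on 0 to 42 counts a library and was not tested where at least 10 counts were required in every library.

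The 8 members tested stayed called lower in both induced groups against juvenile osteoblasts under every alternative, except *Fmod* by library totals (log2 fold change -0.94 with *c-Myc*, -0.57 with *c-Myc* + *R172H*) and *Aspn* without *c-Myc*-induced library 1. With age, the number of members called was 2 by library totals (*Fmod*, *Lum*), 2 with all 12 libraries in the fit (*Fmod*, *Prelp*), 3 by DESeq2, 1 without a filter (*Lum* in place of *Fmod*) and 0 to 2 over fits that each lacked 1 library. Between the induced groups it was 4 by DESeq2 (*Omd* added), 4 without a filter (*Prelp* added), 2 with all 12 libraries and 1 to 3 on leaving out each library. The direction turned for *Omd* with age by library totals (-0.08) and for *Ogn* between the induced groups by library totals (0.08). On leaving out each library, the log2 fold change with age ran from -0.33 to 0.03 for *Dcn*, from -0.11 to 0.04 for *Bgn*, from -0.28 to 0.12 for *Ogn* and from -0.32 to 0.32 for *Aspn*, and between the induced groups from -3.68 to 2.7 for *Aspn*. The log2 *Bgn* to *Dcn* difference ran from -0.03 to 0.30, the lowest without adult library 2, and was 0.45 with adult libraries 1 and 4 both left out (exact permutation p = 0.133, the smallest that design allows). The causes were not tested.

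Over all genes, the 581 calls with age became 977 without a filter, 1094 with all 12 libraries, 935 by DESeq2, 265 with the fold limit and 284 to 885 on leaving out a library. They became 222 with adult libraries 1 and 4 left out, an alternative chosen after seeing the data. Without the fold limit, 4330 calls with *c-Myc* became 6726 and 4724 with *c-Myc* + *R172H* became 7143. The 59 calls between the induced groups became 32 with a fold limit, 222 without a filter, 22 with all 12 libraries, 201 by DESeq2 and 8 to 87 on leaving out a library. Library totals moved the median gene by -0.24 with age, 0.87 with *c-Myc*, 1.12 with *c-Myc* + *R172H* and 0.21 between the induced groups, and the share of calls that were higher from 36.8% to 6.26%, 53.6% to 88.2%, 52.2% to 87.8% (7132 calls) and 1.69% to 8.33% (12 calls).

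Libraries with the same title number did not deviate together with age (correlations of -0.048 to 0.0372). Between the induced groups the correlation was 0.131, where replicate 2 is the library with *Xist* above 200 CPM in each group. With 2 libraries a group this is a single value, the same for both numbers by construction. The number marks no stated pairing, and in the adult group it differs from the number in the library name. With the replicate number as a block, 1 member was called with age, 8 and 8 in the induced groups against juvenile, and 2 (*Bgn*, *Prelp*) between the induced groups, where all-gene calls became 326. The blocked *Bgn* to *Dcn* difference was 0.14 (exact permutation p = 0.75).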
